A study of Mus musculus with 24 samples.

Results

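Interferon-stimulated genes are genes that cells switch on after an interferon binds its receptor. The 42 genes described here were listed by symbol and were followed in mouse Th1 cells grown with or without the BET inhibitor I-BET-762. Each gene was represented by 1 probe set, chosen from those annotated to a single symbol as the one whose mean over the 24 arrays was highest. Such a probe set was found for 40 of the 42 genes, out of 18193 genes measured in all. Isg15 had only a probe set shared with another gene and Ifi44 had none, so neither has a value here. Of the 40, 30 had a mean log2(intensity + 16) of at least 6 and 10 were dimmer, namely Ifit3, Mx1, Mx2, Oas1a, Oas2, Oasl2, Usp18, Irf7, Rtp4 and Cmpk2. For those 10 the added constant compresses the log2 changes.

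RNA was taken from CD4+ T cells of 2D2 TCR transgenic mice on a C57BL/6 background, in which every group carried the transgenic receptor. Priming used Th1 conditions and plates coated with antibodies to CD3 and CD28, in the presence of DMSO, of Control-768, or of I-BET-762 at 0.25 µM or 0.5 µM. After 48 h the cells were taken off the antibodies, and 2 days of expansion followed. Activated cells were then restimulated for 4 h with the same antibodies, and resting cells were not, which gave 8 groups of 3 biological replicates. The concentration of Control-768, the age and sex of the mice and the presence of the compounds during restimulation are not given in the sources used here.

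Type I interferons signal through the receptor chains encoded by Ifnar1 and Ifnar2 to a transcription factor complex that holds STAT2 and IRF9 and binds interferon-stimulated response elements. Interferon gamma, the signature cytokine of Th1 cells, signals through the chains encoded by Ifngr1 and Ifngr2 to gamma-activated sites in its target genes. The products include enzymes and proteins that block viruses, sensors of foreign nucleic acid, immunity-related GTPases and the immunoproteasome. I-BET-762 blocks the bromodomains with which BET proteins bind acetylated histones at active genes.

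On all 24 arrays the defining T cell marker Cd3d lay between 5841 and 9525 and Cd4 between 364 and 1143. Of 27 listed markers of the cells named and of other cells, 24 had a probe set. The B cell marker Cd79a never exceeded 11.6, and the summed markers reached at most 73.2 for B cells (3 of 4 measured), 63.9 for NK cells (2 of 3) and 247 for myeloid cells (5 of 5). They reached 379 for dendritic cells (4 of 4) and 454 for plasmacytoid dendritic cells (3 of 3), known producers of type I interferon, where Tcf4 alone reached 396 and Siglech at most 37.8. The CD8 markers Cd8a and Cd8b1 were present, and Cd8b1 lay between 320 and 859. Arrays numbered 3 lay farther from their group means than those numbered 1 or 2, with a mean SD of the deviations of 0.262 log2 in activated and 0.292 in resting cells, against at most 0.205 and 0.208 for the other numbers. Calls without those arrays are given after the results for each role.

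Promoter sequence is shown for 2 members whose change with I-BET-762 in resting cells passed the test (Isg20 and Oas3) and for 2 members that passed it only in activated cells and only with a term for the replicate number (Irf1 and Irgm1). Each stretch is the 150 bases directly before the annotated start of the gene, read 5′ to 3′ on the strand of the gene, from RefSeq on GRCm38.p6. They lie at chr7:78913246-78913395 on the plus strand for Isg20, chr5:120777685-120777834 on the minus strand for Oas3, chr11:53769864-53770013 on the plus strand for Irf1 and chr11:48871421-48871570 on the minus strand for Irgm1. Capitals mark a match to TTCNNNGAA, the core of a gamma-activated site, in Isg20 and Irf1, and to 2 GAAA runs with any 2 bases between them, the core of an interferon-stimulated response element, in Oas3 and Irgm1.
Isg20: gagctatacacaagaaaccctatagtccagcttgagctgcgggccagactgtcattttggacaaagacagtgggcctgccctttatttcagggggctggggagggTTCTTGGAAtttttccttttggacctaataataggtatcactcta
Oas3: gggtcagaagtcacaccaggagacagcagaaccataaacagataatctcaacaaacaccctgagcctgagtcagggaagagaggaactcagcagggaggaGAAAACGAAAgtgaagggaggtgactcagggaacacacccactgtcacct
Irf1: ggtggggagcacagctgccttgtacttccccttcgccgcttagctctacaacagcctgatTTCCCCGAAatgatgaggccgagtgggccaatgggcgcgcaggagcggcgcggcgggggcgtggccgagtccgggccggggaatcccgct
Irgm1: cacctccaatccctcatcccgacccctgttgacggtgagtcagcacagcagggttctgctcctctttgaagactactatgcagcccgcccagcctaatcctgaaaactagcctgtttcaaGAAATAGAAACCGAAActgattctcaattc

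The match lay 45 to 37 bases before the start in Isg20, 50 to 41 in Oas3 and 90 to 82 in Irf1. In Irgm1 2 overlapping copies spanned 30 to 15 bases before it. The genes themselves lie on chromosome 7 from 78913396 to 78920396 (Isg20), chromosome 5 from 120753098 to 120777684 (Oas3), and chromosome 11 from 53770014 to 53778374 (Irf1) and from 48865245 to 48871420 (Irgm1). Over windows from 250 bases before to 50 after a start, searched on both strands, the response element core was found in 15 of the 33 listed genes with an entry (45.5%). It was found in 3.99% of all 27025 genes with an entry and in 3.44% of all 32851 promoters. TTCNNNGAA, which reads the same on both strands, was found in 9 of the 33 (27.3%), against 9.55% of all genes and 8.3% of all promoters. The 2 motifs were searched independently, and 4 of the listed genes (Oas1a, Bst2, Igtp and Eif2ak2) held both. A match describes letters in this window and is not evidence of binding.

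Whether I-BET-762 changed these genes was asked in each state by comparing the 6 arrays of I-BET-762 with the 6 arrays of DMSO and Control-768. In the model without the replicate number, few of the 40 were called. In activated cells Zbp1 alone rose, and in resting cells Zbp1 rose and Isg20, Oas3 and Usp18 fell (adjusted p under 0.05, limma). The call in activated cells stands beside 1.19% of all genes called in that comparison (0.407% higher and 0.781% lower), and the 4 calls in resting cells beside 1.85% (0.627% higher and 1.23% lower). The median log2 change of the 40 was -0.15 in activated and -0.05 in resting cells, against medians near 0 over all genes. With the replicate number as a block within each state, 6 were called in activated cells (1 higher, 5 lower) and 7 in resting cells (2 higher, 5 lower), beside 4.19% of all genes (1.84% higher, 2.35% lower) and 5.68% (2.16% higher, 3.52% lower).

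**Figure D1:**
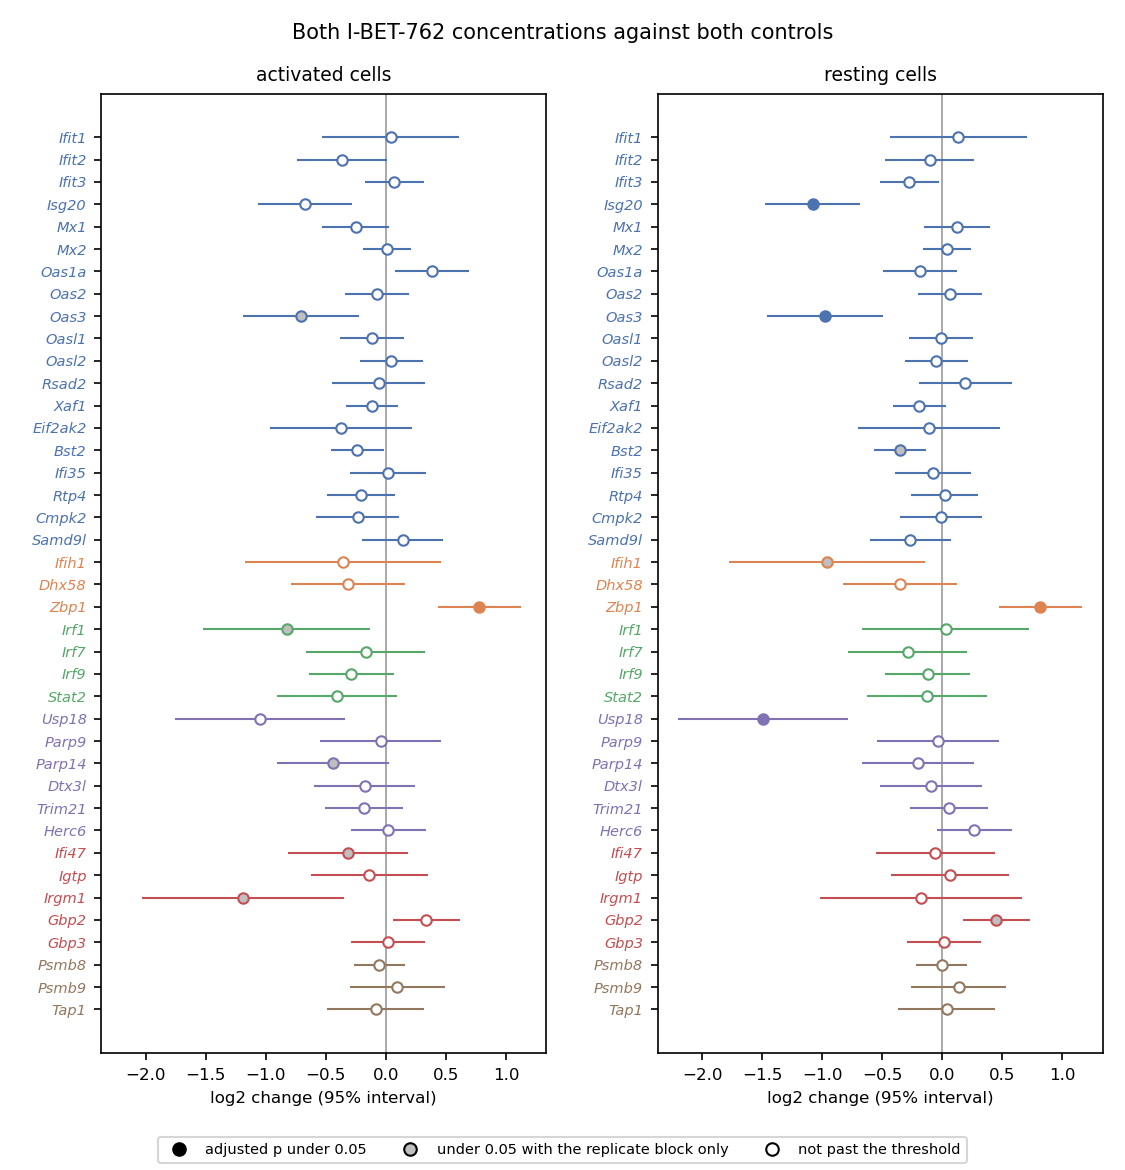
Log2 change (x axis) of each of the 40 measured genes with both I-BET-762 concentrations against both controls, in activated cells (left) and resting cells (right), with 95% intervals from the model and genes coloured and ordered by role. Filled points passed the adjusted p of 0.05, grey points passed it only with the replicate block; Zbp1 lies to the right of 0 in both states and Isg20, Oas3 and Usp18 are the filled points to the left in resting cells.

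Among the antiviral effectors, Isg20, an exonuclease that degrades single-stranded RNA, gave the clearest fall. In resting cells its intensity was 727, 944 and 695 with DMSO, 747, 919.9 and 682 with Control-768, 472, 434 and 602 with 0.25 µM and 337, 310.0 and 165 with 0.5 µM I-BET-762. Every I-BET-762 array lay below every control array, and every 0.5 µM array below every 0.25 µM array. The pooled log2 change was -1.08 ± 0.19 (SE; limma adjusted p = 0.00268), and leaving out any 1 of the 12 arrays kept it past the threshold, at 0.00261 to 0.0123. At 0.5 µM against Control-768 it was -1.53 ± 0.27 (limma adjusted p = 0.00343), a call lost when only the compared groups entered the fit (0.129). In a bulk sample, fewer cells of a type and less RNA per cell cannot be told apart.

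In activated cells Isg20 read 645, 855 and 898 with DMSO, 749, 798 and 993 with Control-768, 634, 439 and 835 with 0.25 µM and 610.2, 354 and 326 with 0.5 µM I-BET-762. The 0.5 µM arrays lay below all Control-768 arrays, but the arrays of both concentrations and both controls overlapped. The pooled change of -0.67 did not pass (limma adjusted p = 0.103; 0.0594 with the replicate block). The difference between the states, 0.40 with an interval of -0.15 to 0.96, was not significant either (limma adjusted p = 0.9999).

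Oas3 encodes an oligoadenylate synthetase, which makes the messenger that activates RNase L. In resting cells it read 185, 172 and 146 with DMSO, 202, 182 and 184 with Control-768, 97.4, 101 and 105 with 0.25 µM and 74.3, 57.0 and 69.8 with 0.5 µM I-BET-762. The I-BET-762 arrays did not overlap the control arrays, and the 0.5 µM arrays all lay below the 0.25 µM arrays. The pooled change was -0.98 ± 0.23 (limma adjusted p = 0.0302; 2.57e-05 with the replicate block). This call was close to the threshold: of the 12 fits that left out 1 array, only that without resting DMSO replicate 3 kept it, at 0.0380, and the others gave up to 0.0835. With a constant of 1 in place of 16 the change was -1.10 with an adjusted p of 0.148.

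In activated cells Oas3 read 56.6, 132 and 47.3 with DMSO, 89.3, 111 and 57.1 with Control-768, 52.1, 80.2 and 35.4 with 0.25 µM and 37.3, 60.4 and 9.49 with 0.5 µM I-BET-762. Replicate 2 was the highest in every group, so the groups overlapped although the 0.5 µM array was the lowest of its number each time. The pooled change of -0.71 ± 0.23 had a limma adjusted p of 0.213, and of 0.000848 with the replicate block.

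Bst2, which encodes tetherin, the membrane protein that holds budding virus on the cell, was lower by a smaller step. Its resting values were 1483, 1634 and 1408 with DMSO, 1449.6, 1529.7 and 1455 with Control-768, 1278, 1392 and 1399 with 0.25 µM and 1123, 1235 and 725 with 0.5 µM I-BET-762. All I-BET-762 arrays lay below all control arrays, as they also did in activated cells. Its change of -0.35 in resting cells passed with the replicate block but not in the model without it (limma adjusted p = 0.0387, against 0.115). In activated cells it was -0.24 (limma adjusted p = 0.478).

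Of 40 genes, 1 was below both controls without overlap in activated cells (Bst2) and 3 in resting cells (Isg20, Oas3 and Bst2), beside 1.12% and 1.14% of all genes. Above them without overlap was 1 gene in activated cells (Zbp1) and none of the 40 in resting cells, beside 0.753% and 0.857%. The other 16 antiviral effectors with a value had pooled changes between -0.37 and 0.38 in activated cells and between -0.27 and 0.19 in resting cells, and none passed with or without the block. They include the Ifit, Mx and 2'-5' oligoadenylate synthetase families, of which several members were dim. Ifit2, which binds viral RNA, was at -0.37 in activated cells (limma adjusted p = 0.558), and Ifit3 at -0.27 in resting cells (limma adjusted p = 0.397). Oas1a had the largest positive value, 0.38 in activated cells (limma adjusted p = 0.357).

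**Figure D2:**
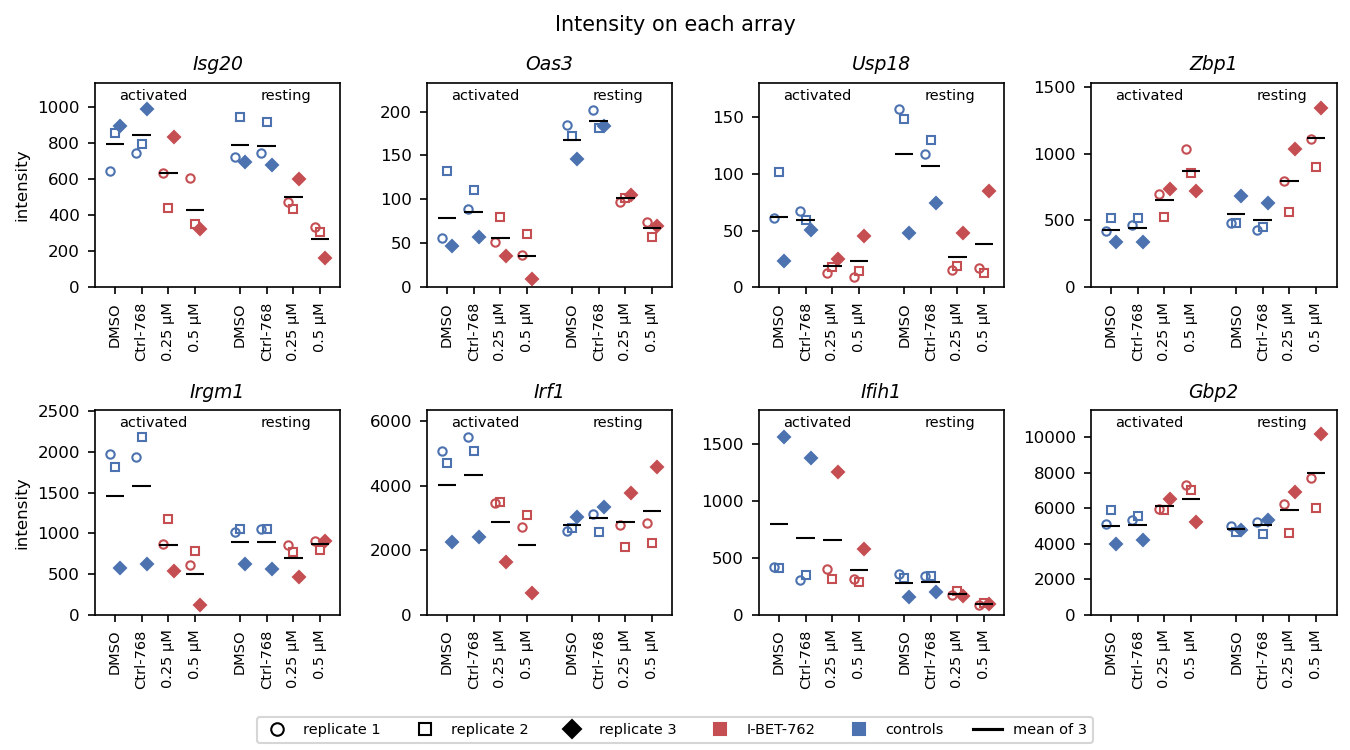
Deposited intensity (y axis, linear from 0) on each of the 24 arrays for 8 of the genes, with activated groups left of resting groups and compounds in the order DMSO, Control-768, 0.25 and 0.5 µM I-BET-762; bars are means of 3 arrays and symbols mark the replicate number. Resting Isg20 and Oas3 arrays step down with concentration, I-BET-762 arrays of Zbp1 lie above the controls of their replicate number, and the arrays numbered 3 stand apart for Usp18, Irgm1, Irf1 and activated Ifih1.

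Among the nucleic acid sensors the direction differed between genes. Zbp1, a sensor of Z-form nucleic acids that can trigger necroptosis, was the one gene of the 40 called higher with I-BET-762 in both states. In resting cells it read 479, 482 and 683 with DMSO, 429, 451 and 630.2 with Control-768, 793, 563 and 1036 with 0.25 µM and 1113, 902 and 1342 with 0.5 µM I-BET-762. Within each replicate number both I-BET-762 arrays lay above both control arrays, and all 0.5 µM arrays lay above all control arrays. The pooled change was 0.82 ± 0.17 (limma adjusted p = 0.00978), and it passed without any 1 of the 12 arrays. At 0.5 µM against Control-768 it was 1.13 ± 0.24 (limma adjusted p = 0.0145), which was lost without resting Control-768 replicate 1 or 2 or 0.5 µM replicate 1 or 3, at 0.0545 to 0.0938, and with only the compared groups in the fit, at 0.14.

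In activated cells Zbp1 read 419, 519 and 341 with DMSO, 469, 518 and 339 with Control-768, 695, 526 and 734 with 0.25 µM and 1031, 852 and 723 with 0.5 µM I-BET-762. All 6 I-BET-762 arrays lay above all 6 control arrays. The pooled change was 0.78 ± 0.17 (limma adjusted p = 0.0202). It was lost, at 0.0548 to 0.0628, without activated DMSO, 0.5 µM or 0.25 µM replicate 1, or without DMSO, Control-768 or 0.25 µM replicate 3. It was also lost with quantile normalization (0.0573) and without probe sets whose names end in _x_at, _s_at or _a_at (0.124). The main Zbp1 probe set ends in _a_at, so the last of these fits used a second, dimmer one. That second set was also higher, by 0.49 in activated cells, where it did not pass, and by 0.76 in resting cells.

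Ifih1 encodes MDA5, a sensor of long double-stranded RNA, and its values were the other way. Its resting values were 362, 325 and 159 with DMSO, 341, 339 and 202 with Control-768, 175, 210.0 and 163 with 0.25 µM and 92.02, 105 and 96.7 with 0.5 µM I-BET-762. The 0.5 µM arrays lay below every other resting array, while replicate 3 of both controls overlapped the 0.25 µM arrays. The pooled change of -0.96 passed with the replicate block but not in the model without it (limma adjusted p = 0.00110, against 0.349). At 0.5 µM against Control-768 it was -1.41 (limma adjusted p = 0.000917 with the block and 0.326 without).

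Dhx58, which encodes LGP2, the regulator of MDA5, showed how 1 array can set a value. At 0.5 µM I-BET-762 in resting cells it read 68.4, 70.0 and 249.98, against 162, 135 and 113 with Control-768. The arrays of replicates 1 and 2 were lower with I-BET-762 and that of replicate 3 was higher. The change of -0.28 did not pass (limma adjusted p = 0.857). Without the arrays numbered 3 it was -0.95 (limma adjusted p = 0.025).

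Usp18 encodes the protease that removes ISG15 from proteins and restrains the type I interferon receptor. Its resting values were 157, 148 and 47.7 with DMSO, 117, 129.6 and 74.5 with Control-768, 14.8, 18.7 and 47.6 with 0.25 µM and 16.9, 12.2 and 84.5 with 0.5 µM I-BET-762. On the arrays numbered 1 and 2 the I-BET-762 values lay below every control value, whereas on those numbered 3 the 4 groups overlapped. The pooled change of -1.49 ± 0.34 passed (limma adjusted p = 0.0222; 0.0267 with the block) and is set by replicates 1 and 2. It was lost without any one of those 8 arrays, at 0.0591 to 0.0749, and was kept without any one array numbered 3. It was also lost when only the compared groups entered the fit (limma adjusted p = 0.0863). Without all arrays numbered 3 the change was -2.28.

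In activated cells Usp18 read 61.1, 101 and 23.2 with DMSO, 67.2, 59.1 and 50.7 with Control-768, 12.6, 18.1 and 25.04 with 0.25 µM and 9.22, 13.9 and 45.5 with 0.5 µM I-BET-762. The split by replicate number was the same. The pooled change was -1.05 ± 0.34 (limma adjusted p = 0.199). Usp18 has a mean under the limit for dim genes.

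The remaining enzymes of ubiquitin, ISG15 and ADP-ribose transfer are Parp9, Parp14, Dtx3l, Trim21 and Herc6. None of these 5 passed in either state without the block. Parp14, an ADP-ribosyltransferase, read 996, 911 and 361 with 0.5 µM I-BET-762 in activated cells, against 1222, 1221 and 733 with Control-768. Its pooled change of -0.44 in activated cells passed with the block (limma adjusted p = 0.0322, against 0.592 without it).

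Among the transcription factors and GTPases, Irf1 and Irgm1 had the lowest pooled values, both in activated cells. Irf1, a transcription factor induced by interferon gamma, read there 5063, 4704 and 2243 with DMSO, 5511, 5068 and 2418 with Control-768, 3459.6, 3488 and 1638 with 0.25 µM and 2724, 3086 and 679 with 0.5 µM I-BET-762. Within each replicate number both I-BET-762 arrays lay below both control arrays, and replicate 3 was low in all 4 groups. The pooled change was -0.83 ± 0.33, with a limma adjusted p of 0.00166 with the replicate block and 0.397 without it. In resting cells Irf1 was at 0.03, and the difference between the states was -0.85 with an interval of -1.83 to 0.13 (limma adjusted p = 0.9999; 0.144 with the block).

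Irgm1, an immunity-related GTPase that acts on membranes around intracellular pathogens, read 1975, 1819 and 579 with DMSO in activated cells and 1940.5, 2180.1 and 626 with Control-768. It read 873, 1175 and 545 with 0.25 µM and 609, 788 and 127 with 0.5 µM I-BET-762. The order within each replicate number was again the same, with replicate 3 low throughout. The pooled change was -1.19 ± 0.40 (limma adjusted p = 0.000434 with the block and 0.237 without). In resting cells it was -0.18, and the difference between the states was -1.01 with an interval of -2.20 to 0.18 (limma adjusted p = 0.9999; 0.1504 with the block).

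Stat2 and Irf9 encode subunits of the type I interferon complex. At 0.5 µM in activated cells Stat2 read 83.0, 87.7 and 36.1, against 162, 130.3 and 73.9 with Control-768, and Irf9 read 444, 473 and 275, against 677, 606 and 417. Each 0.5 µM array was below the Control-768 array of its number, but the groups overlapped. The changes of -0.71 and -0.50 did not pass (limma adjusted p = 0.622 for both; 0.102 and 0.188 with the block). Irf7, the factor that amplifies type I interferon, was dim, at 3.83 to 40.9 on the 24 arrays.

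Of the other GTPases, Ifi47 was at -0.32 in activated cells, which passed with the block (limma adjusted p = 0.0239, against 0.825 without it). Gbp2, a guanylate-binding protein that attacks pathogen vacuoles, went the other way. In resting cells it read 5019, 4651 and 4788 with DMSO, 5223, 4571 and 5364 with Control-768, 6246, 4613 and 6899 with 0.25 µM and 7707, 6033 and 10151 with 0.5 µM I-BET-762. All 0.5 µM arrays lay above all control arrays, and 1 of the 0.25 µM arrays lay among them. The change of 0.45 passed with the block (limma adjusted p = 0.00957, against 0.111 without it), and a second probe set gave 0.42. Igtp and Gbp3 had pooled changes between -0.14 and 0.06.

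The antigen processing genes had values close to 0 with I-BET-762. Psmb8 and Psmb9 encode subunits of the immunoproteasome and Tap1 a chain of the peptide transporter. In activated cells the pooled changes were -0.05 for Psmb8 (95% interval -0.27 to 0.16), 0.09 for Psmb9 (-0.30 to 0.49) and -0.09 for Tap1 (-0.49 to 0.32). In resting cells they were -0.01, 0.14 and 0.04. None of the 3 passed in either state, with or without the block, and the intervals leave room for changes of those sizes.

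Set against Control-768 alone, no gene of the 40 was called at 0.5 µM in activated cells, beside 0.748% of all genes, and 12 of the 40 had an unadjusted p under 0.05 in that limma fit, beside 7.96% of all genes. With the block 4 were called, Zbp1 higher and Oas3, Irf1 and Irgm1 lower, beside 3.37% of all genes (1.37% higher, 2% lower). In resting cells 2 were called at 0.5 µM, Zbp1 higher and Isg20 lower, beside 1.39% (0.473% higher, 0.912% lower), and 7 had an unadjusted p under 0.05, beside 10.7% of all genes. With the block 6 were called there, with Gbp2 higher and Oas3, Ifih1 and Bst2 lower in addition, beside 5.54% (2.21% higher, 3.33% lower). At 0.25 µM none was called by limma in either state, beside 0.0715% in activated and 0.066% in resting cells, with 3 and 5 at an unadjusted p under 0.05, beside 4% and 4.16% of all genes. With the block, Oas3 alone was called at 0.25 µM in resting cells (limma adjusted p = 0.0267), beside 0.533%, and none in activated cells, beside 0.396%.

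Lack of overlap between the 3 arrays of a concentration and the 3 of Control-768 is a looser measure. At 0.5 µM in activated cells Zbp1 alone was above without overlap, and 7 were below (Ifit1, Ifit2, Isg20, Mx1, Usp18, Bst2 and Rtp4), beside 5.83% and 6.17% of all genes. At 0.25 µM in activated cells 4 were above (Oas1a, Oasl2, Zbp1 and Gbp2) and 2 below (Usp18 and Bst2), beside 5.72% and 4.73%. In resting cells 2 were above at 0.5 µM (Zbp1 and Gbp2) and 6 below (Isg20, Oas3, Oasl2, Ifih1, Xaf1 and Bst2), beside 7.13% and 7.23%. At 0.25 µM in resting cells Mx1 was above and 11 were below, Isg20, Oas3, Usp18 and Bst2 among them, beside 4.88% and 5.22%.

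The median difference of the 40 genes between 0.5 µM I-BET-762 and Control-768 differed between the replicate numbers. In activated cells it was -0.19, -0.25 and -0.52 for replicates 1, 2 and 3. In resting cells it was -0.17, -0.22 and 0.32. The third resting pair thus had the opposite sign, while in activated cells all 3 pairs were below 0. At 0.25 µM the medians were -0.13, -0.12 and -0.02 in activated cells and -0.19, -0.19 and -0.06 in resting cells. Of the 24 arrays, those of 0.5 µM numbered 3 lay farthest from their group means. Their SD of the deviations was 0.339 log2 in activated and 0.333 in resting cells. Over the whole list, 32 of 40 values were below 0 in activated cells at 0.5 µM (median -0.30) and 18 of 40 in resting cells (median 0.01), beside 49.6% and 50.7% of all genes. The listed genes also scattered more within groups than other genes, with a median SD of 0.318 log2 against 0.235 over all genes, and most for Irgm1 (0.765), Ifih1 (0.743), Usp18 (0.642) and Irf1 (0.629).

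**Figure D3:**
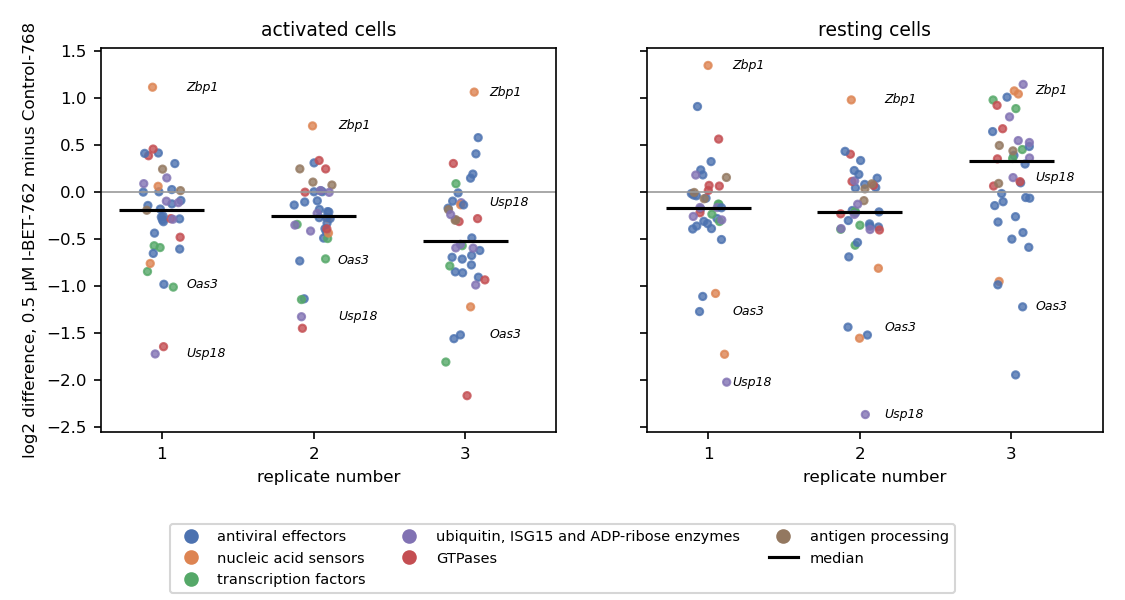
Log2 difference between 0.5 µM I-BET-762 and Control-768 (y axis) for arrays of the same replicate number (x axis), in activated cells (left) and resting cells (right); each point is 1 of the 40 genes, coloured by role, and bars are medians. The resting replicate 3 median is 0.32 and the other 5 lie between -0.52 and -0.17; Zbp1 is above 0 and Oas3 below 0 in all 6 pairs.

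Without the 8 arrays numbered 3, a comparison chosen after these values were seen, more of the 40 were called. So were more of all genes. The pooled calls among the 40 were then 8 in activated cells (1 higher, 7 lower), beside 4.28% of all genes (2.17% higher, 2.11% lower), and 9 in resting cells (1 higher, 8 lower), beside 5.62% (1.59% higher, 4.02% lower). In activated cells these were Zbp1 (0.63), higher, and Usp18 (-1.57), Irgm1 (-1.22), Irf1 (-0.68), Stat2 (-0.44), Ifi47 (-0.38), Parp14 (-0.36) and Irf9 (-0.34), lower. In resting cells they were Zbp1 (0.81), higher, and Usp18 (-2.28), Ifih1 (-1.21), Isg20 (-1.08), Oas3 (-1.05), Dhx58 (-0.66), Ifit2 (-0.41), Irf9 (-0.35) and Bst2 (-0.28), lower. At 0.5 µM in activated cells 7 were called, beside 2.75% of all genes, namely those of the pooled comparison other than Parp14. Markers of cell type differed in range too. The summed T cell markers (5 of 6 measured) were between 19902 and 21596 at 0.5 µM I-BET-762 in activated cells, against between 16640 and 19201 with Control-768. In resting cells they were between 23563 and 30215, against between 21328 and 21706. In activated cells the means of Cd3d (7407 against 6200), Cd3g (5824 against 4614) and Cd3e (2637 against 2137) were higher at 0.5 µM. Those of Cd4 (478 against 501) and Cd28 (4612 against 4701) were not. The summed dendritic markers (4 of 4) were between 174 and 308 with I-BET-762 in activated cells, against between 286 and 379 with the controls. Most of that difference lay in Cd74, with means of 132 and 114 at 0.25 and 0.5 µM, against 205 with DMSO and 206 with Control-768. In the same order the means were 35.8 and 33.8 against 42.3 and 36.6 for Flt3. They were 34.96 and 38.88 against 41.07 and 39.03 for H2-Aa. Itgax, at 30.4 and 39.4 against 37.4 and 26.6, was higher at 0.5 µM than with either control. The part of the cell type markers in these results was not tested.

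The direct test of whether the change with I-BET-762 differed between activated and resting cells called none of the 40 in limma, nor any of the 18193 genes, of which 701 had an unadjusted p under 0.05. Among the 40 only Oas1a had one, at 0.57 with an interval of 0.14 to 1.001. The pooled changes in the 2 states, which share no arrays, had the same sign in 27 of 40 genes. Their Pearson correlation was 0.656 over the 40 genes and 0.614 over all genes, a description across genes, which are not independent.

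The step between the concentrations was not called for any of the 40 in limma, beside 0.011% of all genes in activated and 0.066% in resting cells. At 0.5 µM against 0.25 µM, 36 of 40 values were below 0 in activated cells and 13 of 40 in resting cells, beside 50.6% and 48.5% of all genes. These signs lean on replicate 3. There the median differences from Control-768 at 0.5 and 0.25 µM were -0.52 and -0.02 in activated cells and 0.32 and -0.06 in resting cells. They were closer in replicate 1 (-0.19 and -0.13, and -0.17 and -0.19) and replicate 2 (-0.25 and -0.12, and -0.22 and -0.19). For the step itself, an unadjusted p under 0.05 was found for 1 gene in activated and 5 in resting cells, beside 3.78% and 7.2% of all genes. In resting cells the largest was Isg20, at -0.90 with an interval of -1.46 to -0.34 (limma adjusted p = 0.419). Zbp1 was at 0.50 and Bst2 at -0.43 there. In activated cells the 1 gene was Mx1, at -0.52, which is dim.

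Control-768 and DMSO were not distinguished for these genes. No gene of the 40 was called in either state by limma, none of the 18193 was, and none of the 40 had an unadjusted p under 0.05. The differences lay between -0.30 (Oas1a) and 0.27 (Irf7) in activated cells and between -0.21 (Stat2) and 0.34 (Oas2) in resting cells. A 95% interval for 3 arrays against 3 reached a median of 0.39 log2 to either side over all genes. The number of arrays limits how small a difference can be seen, and the listed genes scattered more than that median gene.

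Restimulation through the T cell receptor asks how the same genes behave 4 h after activation. In the cells primed with I-BET-762, 13 of the 40 changed, 1 higher and 12 lower, beside 32.4% of all genes called (14.8% higher and 17.6% lower). In the cells primed with DMSO or Control-768, 14 of the 40 changed, 2 higher and 12 lower, beside 33.1% of all genes (14.4% higher and 18.6% lower). In total these shares were near those of all genes, while fewer of the 40 were higher and more were lower than over all genes, a difference that was not tested. With the replicate block the counts were 1 higher and 18 lower with I-BET-762, beside 40.6% of all genes (18.6% and 22%), and 5 higher and 17 lower in controls, beside 41% (18.2% and 22.8%).

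Among the cells primed with I-BET-762, 1 gene was above its resting arrays without overlap (Ifih1) and 7 were below, beside 9.66% and 10.2% of all genes. In the controls none of the 40 was above and 11 were below, beside 12% and 13.7%. Dhx58 had the lowest change in both. With I-BET-762 it read from 16.6 to 34.8 (median 20.4) in activated cells, against 68.4 to 249.98 (median 89.3) in resting cells, a change of -1.60 ± 0.23 (limma adjusted p = 2.08e-05). It read from 20.5 to 44.5 (median 34.5) on the 6 activated control arrays, against 106 to 168 (median 129.6) on the 6 resting ones, a change of -1.64 ± 0.23 (limma adjusted p = 1.43e-05). The activated and resting arrays did not overlap in either set of cells. Its other 2 probe sets, with means of 17.8 and 15.2, gave 0.18 and 0.03 in the controls, so the fall rests on the brightest set.

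Ifit2 fell as well. With I-BET-762 it read from 46.9 to 107 (median 75.7) in activated cells, against 174 to 483 (median 190.4) in resting cells, a change of -1.40 (limma adjusted p = 6.90e-06). In controls it read from 83.4 to 111.5 (median 102) in activated cells, against 199.8 to 268 (median 238) in resting cells, a change of -1.13 ± 0.18 (limma adjusted p = 4.95e-05). Neither pair of groups overlapped. Oas3 fell by 0.78 on the log2 scale with I-BET-762 (limma adjusted p = 0.0130) and by 1.05 in the controls (limma adjusted p = 0.00136). Without the arrays numbered 3 its change with I-BET-762 was -0.43 and did not pass (limma adjusted p = 0.151).

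Other effectors that fell in both sets of cells were Xaf1, a pro-apoptotic factor, Cmpk2, a mitochondrial nucleotide kinase, and Samd9l, an antiviral translation inhibitor. Their changes with I-BET-762 were -0.46, -1.04 and -0.52, and in the controls they were -0.54, -0.81 and -0.93. With I-BET-762 the Samd9l call was lost without the arrays numbered 3 (limma adjusted p = 0.066) and with quantile normalization (0.125), and the Xaf1 call with quantile normalization (0.0576). Bst2 was at -0.17 with I-BET-762 and did not pass (limma adjusted p = 0.255). In the controls it fell by 0.28 (limma adjusted p = 0.0453), a call kept only without resting DMSO replicate 3 when 1 array was left out and otherwise at up to 0.102. Stat2 fell by 0.87 with I-BET-762 (limma adjusted p = 0.00763) and was at -0.59 in the controls (limma adjusted p = 0.0653; 0.00565 with the block). Whether these changes differed between the sets of cells is the test of the difference between states given above, which called none of the 40.

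The enzymes of ubiquitin and ADP-ribose transfer fell for 4 of 6 members in each set of cells. Herc6, the mouse ligase for ISG15, read from 35.5 to 88.2 (median 80.3) on activated I-BET-762 arrays, against 139.5 to 196 (median 165) on resting ones. In the controls it read from 50.8 to 92.2 (median 72.6) on activated arrays, against 117 to 153 (median 131) on resting ones. The changes were -1.02 with I-BET-762 and -0.77 in the controls (limma adjusted p = 2.78e-05 and 0.000406), although 1 of its other 3 probe sets gave -0.02 in the controls, beside -1.24 and -0.73. Dtx3l, a ubiquitin ligase, and its partner Parp9 were at -0.79 and -0.75 with I-BET-762 and at -0.71 and -0.74 in the controls.

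Trim21, a cytosolic antibody receptor and ubiquitin ligase, fell by 0.72 with I-BET-762 and by 0.48 in the controls. Some of these calls rest on single arrays. With I-BET-762, Parp9 was lost without replicate 3 of resting or activated 0.5 µM or of activated 0.25 µM (limma adjusted p up to 0.0678). In the controls, Parp9 was lost without activated DMSO or Control-768 replicate 3 or resting DMSO replicate 1 (up to 0.0731), and Trim21 without activated DMSO or Control-768 replicate 3 or resting DMSO or Control-768 replicate 1 or 2 (up to 0.0659). Parp14 alone of the group was above 0, at 0.26 with I-BET-762 (limma adjusted p = 0.425) and at 0.50 in the controls (limma adjusted p = 0.0938; 0.00140 with the block).

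Psmb9 fell on restimulation in both sets of cells. With I-BET-762 it read from 1830 to 4341 (median 3819) on activated arrays, against 4504 to 5867 (median 5200.5) on resting ones, a change of -0.64 (limma adjusted p = 0.0126). In the controls it read from 2250.1 to 3679 (median 3543) on activated arrays, against 3915 to 5315 (median 4816) on resting ones, a change of -0.60 (limma adjusted p = 0.0192). The control call was lost without activated DMSO or Control-768 replicate 3, at 0.0653 each. Psmb8 and Tap1 passed with the block but not in the model without it. They were at -0.26 and -0.46 with I-BET-762 (limma adjusted p with the block = 0.0044 and 0.000392) and at -0.21 and -0.33 in the controls (0.0165 and 0.00496). The same held for Igtp (-0.35), Zbp1 (-0.31) and Ifi47 (-0.27) with I-BET-762 and for Oas1a (-0.36) and Irf7 (-0.49) in the controls. Some of these also passed in alternative fits other than the block. Counting the block but no fit without a single array, Psmb8 passed in 5 of 8 and Tap1 in 3 of 9 with I-BET-762. In the controls Oas1a passed in 4 of 8, Psmb8 in 2 of 8 and Tap1 in 1 of 9.

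Ifih1 was the gene called higher in both sets of cells, and its replicates were far from uniform. On activated I-BET-762 arrays it read 406, 321 and 1259 at 0.25 µM and 319, 287 and 581 at 0.5 µM. On activated control arrays it read 422, 418 and 1564 with DMSO and 306, 351 and 1377 with Control-768. Replicate 3 was the highest in each of the 4 groups, whereas on the resting control arrays it was the lowest. The change was 1.65 ± 0.39 with I-BET-762 (limma adjusted p = 0.00253) and 1.05 ± 0.39 in the controls (limma adjusted p = 0.0445).

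The control call for Ifih1 was lost in 7 of the 12 fits that left out 1 array, namely without replicate 3 of any of the 4 control groups, resting replicate 2 of either control or resting Control-768 replicate 1, at 0.0523 to 0.151. Without any array numbered 3 its change in the controls was 0.11 (limma adjusted p = 0.396). Mx1 was the other gene called higher in the controls, by 0.38 (limma adjusted p = 0.0314). It read from 36.0 to 58.0 (median 41.2) in activated cells, against 26.5 to 40.1 (median 28.2) in resting cells, which overlap at a dim level. That call was lost without resting DMSO or Control-768 replicate 1 or 2 or activated DMSO or Control-768 replicate 3, at up to 0.0959.

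**Figure D4:**
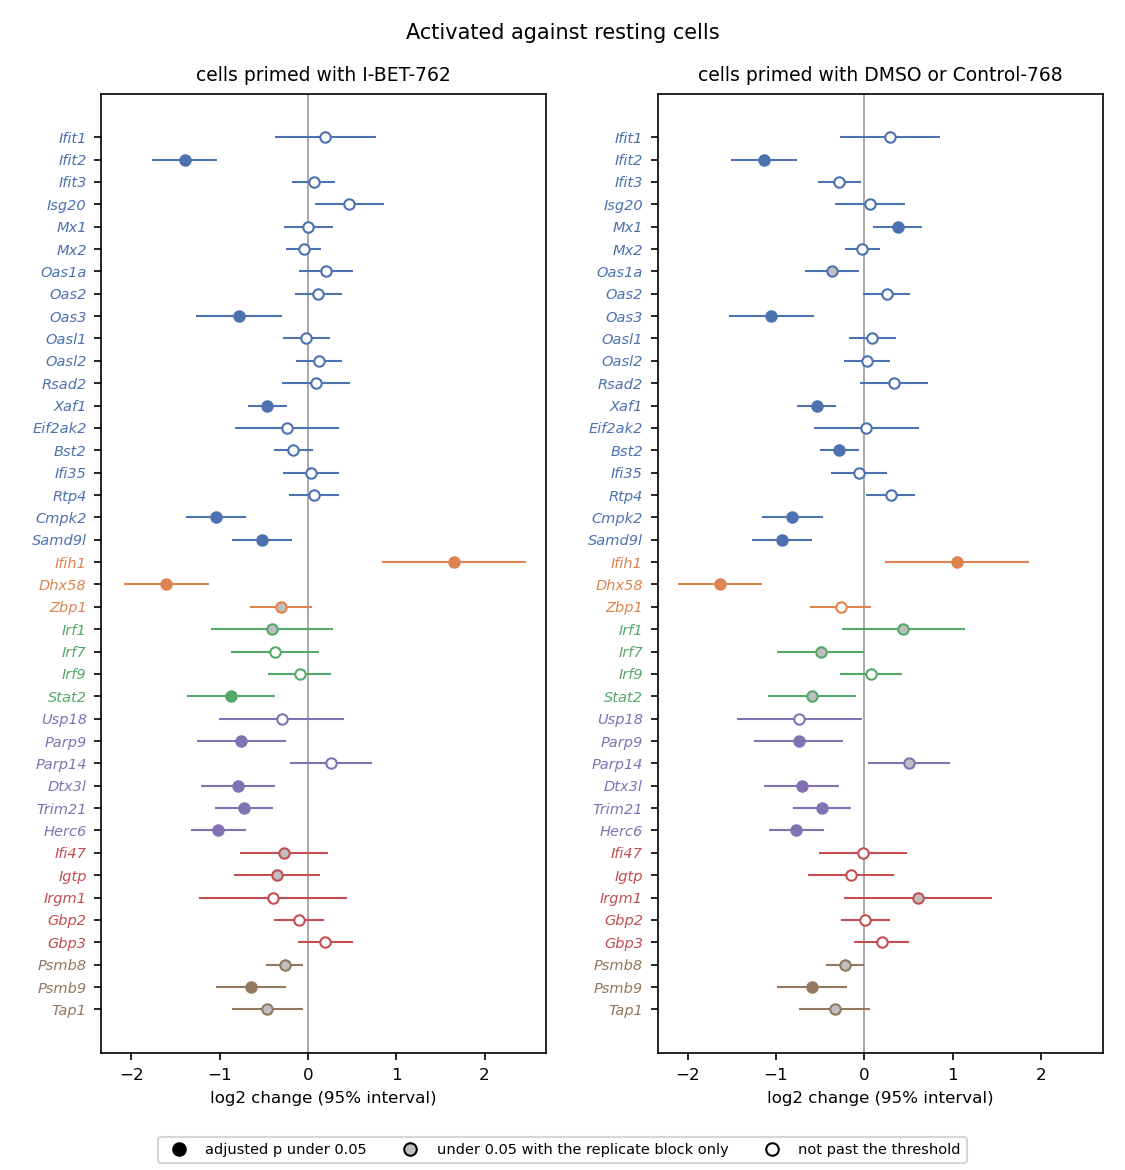
Log2 change (x axis) of each of the 40 genes in activated against resting cells, for cells primed with I-BET-762 (left) and with DMSO or Control-768 (right), with 95% intervals and genes coloured and ordered by role. Filled points passed the adjusted p of 0.05; Dhx58 (-1.60 and -1.64) and Ifit2 (-1.40 and -1.13) lie farthest to the left in both panels and Ifih1 farthest to the right.

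The restimulation changes with and without I-BET-762, which share no arrays, had the same sign in 31 of the 40 genes. Their Pearson correlation was 0.831 over the 40 and 0.927 over all genes, a description across genes. Irf1 was at -0.41 with I-BET-762 and 0.44 in the controls, and Irgm1 at -0.40 and 0.61. Without any array numbered 3, Irf1 with I-BET-762 was at 0.36 (limma adjusted p = 0.0280). With the block the limma adjusted p was 0.0233 and 0.0149 for Irf1 and 0.0713 and 0.00734 for Irgm1, and none of these passed without it. The tests of the difference between them are those given above for activated against resting cells.

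The ligands, receptors and signal carriers upstream were followed with a list of 36 pathway genes, of which 35 had a value. Ifng itself was at 16521 ± 1328 on the 6 activated I-BET-762 arrays, against 1495 ± 690 on the 6 resting ones (mean ± SD), a log2 rise of 3.61 ± 0.29 (limma adjusted p = 4.23e-08). In the controls it was at 16710.3 ± 1013 in activated cells, against 872 ± 375 in resting cells, a log2 rise of 4.33 ± 0.29 (limma adjusted p = 3.20e-09). Ifnb1, encoding interferon beta, lay between 24.99 and 63.0 on all 24 arrays and did not pass in any of these comparisons.

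On restimulation 11 of the 35 rose and 7 fell with I-BET-762, beside 14.8% and 17.6% of all genes. In the controls 11 rose and 5 fell, beside 14.4% and 18.6%. Of the 4 receptor chains, Ifngr1 (-1.68), Ifnar2 (-0.94) and Ifnar1 (-0.42) fell in the controls. Ifngr2 ran the other way, at 0.38 with I-BET-762 and 0.53 in the controls, and passed only with the block (limma adjusted p = 0.0341 and 0.0042). Also in the controls, the kinase gene Jak2 rose by 1.76 and the transcription factor gene Irf8 by 1.93. Ddx58, which encodes the RNA sensor RIG-I, fell by 0.99, and Mavs, the adaptor of RIG-I and MDA5, by 0.41.

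With I-BET-762 in resting cells 2 of the 35 were called, both lower, beside 1.85% of all genes (1.23% lower), namely the transcription factor gene Irf5 at -0.44 (limma adjusted p = 0.0325) and the corepressor gene Irf2bp2 at -0.39 (limma adjusted p = 0.0395). None was called in activated cells, beside 1.19% of all genes, and 5 had an unadjusted p under 0.05 there, beside 9.17%. Cxcl10, a chemokine induced by interferon gamma, read 836, 951 and 595 with DMSO, 936, 791 and 771 with Control-768, 485, 218 and 398 with 0.25 µM and 146, 124 and 58.9 with 0.5 µM I-BET-762 in activated cells. All I-BET-762 arrays lay below all control arrays and all 0.5 µM arrays below all 0.25 µM arrays. Its pooled change of -1.97 ± 0.51 had a limma adjusted p of 0.0666, and of 3.87e-05 with the replicate block. With the block, Ifngr2 (-0.62) and Irf5 (-0.40) were also lower in activated cells, and Ifng (0.70), Socs3 (0.68), Jak2 (0.43) and Irf4 (0.30) were higher in resting cells.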

How the data were processed

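Amplified, biotin-labelled RNA was measured on 24 Affymetrix mouse 430 2.0 arrays. The authors deposited linear intensities, 1 for each of 45101 probe sets and array, and the sources used here do not say how these were summarized and normalized. The median intensity of an array was 37.4 to 44.4. Genes were named from the platform annotation, in which 34945 probe sets had 1 symbol and 932 had several, which were left out. Groups came from the labels, whose design text calls the replicates biological.

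Values were analysed as log2(intensity + 16) with limma 3.58.1 in R 4.3.3, in 1 model of the 8 group means (16 residual degrees of freedom) and 13 comparisons. P-values were two-sided and adjusted by Benjamini-Hochberg over all 18193 genes at a threshold of 0.05. The procedure was tested on simulated data for 0.5 µM I-BET-762 against Control-768 in activated cells. It recovered 79 of 100 genes changed by 1 log2 and 98 of 100 changed by 2, with 10 false calls. The changed genes had a mean log2 of at least 6. The simulated noise was independent between arrays, so shifts shared by arrays of a replicate number were not tested. The genes, lists and tests were chosen with earlier results of these data known. Genes named are the 42 listed and the pathway genes. The rule set beforehand let any member past the threshold with non-overlapping arrays be named, and in each role group the member with the largest change and the brightest. Other members are named as well, among them some that met only the threshold or only the lack of overlap. Promoters were chosen among members past the threshold, with or without a response element. Irf1 and Irgm1 passed it with the replicate block but not without it. Not every such member is shown: Bst2, Ifih1 and Gbp2 also passed with the block and hold a response element core.

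Deviations from group means of arrays with the same replicate number correlated at 0.155 to 0.564 within activated and 0.197 to 0.699 within resting cells, but at -0.05 to 0.186 between the states. The replicate number was therefore a block within each state in an alternative fit. Others were the added constant, leaving out dim genes, quantile normalization, only the compared groups, DMSO as the control, and leaving out each array. Another left out probe sets ending in _x_at, _s_at or _a_at, which drops a gene that has no other probe set.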

Additional observations from a re-analysis of the deposited data

How the results depend on the processing

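Of 695 refits of the 34 gene results called, 612 stayed called, 83 lost the call and none changed sign. Most of the 34 were restimulation results, and the losses were uneven. With 1 array left out, the pooled resting call of Oas3 was kept in 1 of 12 fits and that of Usp18 in 4 of 12. The pooled activated call of Zbp1 was kept in 6 of 12. The pooled resting calls of Isg20 and Zbp1 were kept in all 12. On restimulation of controls, Bst2 was kept in 1 of 12 and Dhx58 in all 12. Counts of the 40 genes called moved as follows. At 0.5 µM in activated cells the count of 0 became 1 without dim genes, 1 against DMSO, 4 with the replicate block within each state, 3 with a replicate block shared by both states and 7 without the arrays numbered 3, an alternative chosen after seeing the data. At 0.25 µM in activated cells 0 became 2 without those arrays. With both concentrations pooled in activated cells 1 became 0 with quantile normalization and 0 without probe sets ending in _x_at, _s_at or _a_at. That count became 6 with the replicate block, 2 with the shared block and 8 without the arrays numbered 3. At 0.5 µM in resting cells 2 became 4 with a constant of 64, 4 without dim genes and 1 with only the compared groups. That count became 6 with the replicate block, 4 with the shared block and 6 without the arrays numbered 3. Without probe sets ending in _x_at, _s_at or _a_at it was 1, and Isg20, whose only probe set ends in _a_at, was then not tested. At 0.25 µM in resting cells 0 became 1 with the replicate block and 2 without those arrays. Pooled in resting cells 4 became 7 with the replicate block and 9 without those arrays. On restimulation of controls 14 became 22 with the replicate block. Without the arrays numbered 3, Ifih1 was called in the difference between states and in the dose step of resting cells (1 each), and Irf1 on restimulation with I-BET-762 was 0.36, against -0.41 with all arrays. Calls that the block changed are given beside the results. Leaving out 1 array gave 0 to 1 calls at 0.5 µM (Isg20, without activated 0.5 µM replicate 1) and 0 to 1 pooled in activated cells, 1 to 4 at 0.5 µM (4 without resting 0.5 µM replicate 2) and 2 to 4 pooled in resting cells, 9 to 14 on restimulation of controls (9 without activated DMSO replicate 3) and 12 to 15 with I-BET-762. Over all genes the block raised the pooled I-BET-762 calls to 762, against 216, in activated cells and to 1033, against 337, in resting cells, and those at 0.5 µM to 613, against 136, and 1007, against 252. With only the compared groups 34 genes were called at 0.5 µM in activated and 29 in resting cells. The causes were not tested. With 3 arrays in a group, precision is limited by the number of arrays, and the added constant compresses changes of dim genes.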
